A study of Arabidopsis thaliana with 16 samples.

Results

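Dehydrins are the plant proteins that carry the lysine-rich K-segment, a subgroup of the late embryogenesis abundant proteins. The 10 dehydrin genes of Arabidopsis thaliana were taken by their locus identifiers from the 32833 genes counted in each library. The rule itself uses no measured value, but the family was picked for description with earlier results of these data known. They are COR47 (AT1G20440), ERD10 (AT1G20450), ERD14 (AT1G76180), RAB18 (AT5G66400), LTI30 (AT3G50970, also called XERO2), XERO1 (AT3G50980), HIRD11 (AT1G54410), AT2G21490, AT4G38410 and AT4G39130.

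Dehydrins are largely unfolded in solution, gather in cells that lose water through drought, cold, salt or seed drying, and are thought to shield membranes and other proteins there. Many of their genes are switched on through the hormone abscisic acid (ABA), by way of SnRK2 kinases and bZIP factors that bind the ABA-responsive element (ABRE, core ACGTG), and through CBF/DREB factors that bind the dehydration-responsive element (DRE/CRT, core CCGAC). COR47, ERD10 and ERD14 form the acidic group, and casein kinase 2 phosphorylates ERD14. RAB18 is a classic ABA-responsive gene, LTI30 protein binds membranes, and HIRD11 is a short, histidine-rich protein that binds metal ions.

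Poly(A) RNA was sequenced from whole seedlings of Col-0, the wild type, and seu-6, in which the gene for the transcriptional co-regulator SEUSS (SEU) is mutated. In the NaCl experiment 14-day seedlings spent 15 min in liquid 1/2 MS medium, which held 300 mM NaCl or, for the mock, nothing more. In the sorbitol experiment 10-day seedlings spent 6 h in it, with or without 250 mM sorbitol, a sugar alcohol that draws water from cells. All plants grew in long days, and each of the 8 groups has 2 biological replicates, 16 libraries in all. The mutant is 1 allele with no rescued line among the libraries used here, and a mock differs from the plants before transfer by the move into liquid, which all groups share. The series title ties condensation of SEUSS to tolerance of hyperosmotic stress, so the question asked of the dehydrins is how they responded in each genotype and whether the responses differed.

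Gene counts per library lay between 39756463 and 42676953. SEU itself lay between 40.6 and 54.5 CPM (gene counts scaled to library size) in the 8 Col-0 libraries and between 0.401 and 1.16 CPM in the 8 seu-6 libraries. All 13 root markers and all 10 leaf markers had counts in every library. Markers of seeds stood apart in 1 group: their summed level was 185 and 185.1 CPM in the seu-6 mock at 6 h, with all 12 markers present in both libraries, against 0.915 to 6.23 CPM in the other 14 libraries. The same 2 libraries also differed more from each other than other replicates did, with a chi-square per gene of 8.95 against 3.31 to 4.68. This group enters every sorbitol response of seu-6, every difference between the sorbitol responses and every level of the seu-6 mock at 6 h given below. The part of the seed markers in those values was not tested.

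The upstream sequences are shown for 4 dehydrins that span the range of response to sorbitol, RAB18 at the top and HIRD11 at the bottom. They are the 250 bases before the annotated gene start, 5′ to 3′ on the gene's strand, from RefSeq's TAIR10.1 assembly, with each ACGTG or CCGAC in capitals, whichever strand it lies on.
RAB18, chr5:26519448-26519697, minus strand: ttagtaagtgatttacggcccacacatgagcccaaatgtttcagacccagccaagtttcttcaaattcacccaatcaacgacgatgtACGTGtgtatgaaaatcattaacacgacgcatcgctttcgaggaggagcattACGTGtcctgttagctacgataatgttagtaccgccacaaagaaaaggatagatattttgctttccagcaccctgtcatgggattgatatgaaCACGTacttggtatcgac
LTI30, chr3:18940393-18940642, plus strand: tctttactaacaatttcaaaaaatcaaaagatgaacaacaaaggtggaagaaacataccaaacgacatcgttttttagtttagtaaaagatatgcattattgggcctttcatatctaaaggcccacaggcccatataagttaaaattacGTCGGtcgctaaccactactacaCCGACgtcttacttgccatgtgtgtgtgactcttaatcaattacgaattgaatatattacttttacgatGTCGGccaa
ERD14, chr1:28587932-28588181, minus strand: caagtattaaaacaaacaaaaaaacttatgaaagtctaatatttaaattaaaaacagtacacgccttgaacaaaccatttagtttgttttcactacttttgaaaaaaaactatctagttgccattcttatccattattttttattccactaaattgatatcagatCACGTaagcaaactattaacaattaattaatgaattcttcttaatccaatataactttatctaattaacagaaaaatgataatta
HIRD11, chr1:20310851-20311100, minus strand: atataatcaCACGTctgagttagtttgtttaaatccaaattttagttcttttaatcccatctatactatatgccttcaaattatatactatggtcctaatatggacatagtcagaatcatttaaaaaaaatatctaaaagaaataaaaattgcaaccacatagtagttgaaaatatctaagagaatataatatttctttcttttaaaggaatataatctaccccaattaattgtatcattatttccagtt
In the stretch shown RAB18 has 3 matches to ACGTG and none to CCGAC. LTI30 has 3 matches to CCGAC there, and ERD14 and HIRD11 have 1 match each to ACGTG. LTI30 and ERD14 have a further ACGTG on base 1 to 5 of the gene, just past the stretch shown. The motifs were searched on both strands, and the G-box CACGTG, which contains ACGTG read on either strand, was searched as well.

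In the 300 bases from 250 before to 50 after the gene start, ACGTG occurred in 8 of the 10 dehydrins, against 26.7% of the 27443 protein-coding genes of the assembly. CCGAC occurred in 3 of the 10 (LTI30, AT2G21490 and AT4G38410), against 15% of those genes, and these 3 also held ACGTG, a combination found in 4.7%. CACGTG occurred in XERO1 and AT4G39130, against 7.7%. COR47 and ERD10 held none of these letters in that window, but their annotated starts lie 1209 and 499 bases before the coding start, so the window lies far from it. In the 1000 bases before the coding start ACGTG was found in 10 of 10 dehydrins, against 54.2% of genes, and CCGAC in 7 of 10, against 39.4%. The CCGAC nearest the coding start began at position -268 from it in COR47 and at -270 in ERD10. These 29-base sites are shown because the 300-base window misses them. That window also misses the CCGAC of RAB18 (2 matches, the nearest at -206) and ERD14 (1 match, at -899), which are not shown. The ERD10 stretch holds 3 overlapping CCGAC, which make up a single run of capitals.
COR47, chr1:7085916-7085944, minus strand: gatattcatctaCCGACttcaagaaataa
ERD10, chr1:7089361-7089389, minus strand: tccaCCGACCGACCGACgtaaaagaaaat
A match is a run of letters and not a shown binding site, and HIRD11, which had the smallest response to sorbitol among the 8 tested, has an ACGTG as well.

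COR47 and ERD10 are neighbours on chromosome 1, on the same strand, with 1029 bases and no annotated gene between them (chr1:7084409-7086873 and chr1:7087903-7089606). LTI30 and XERO1 are neighbours on chromosome 3 with 313 bases and no gene between them (chr3:18940643-18941611 and chr3:18941925-18942940). The other 6 lie apart, ERD14 at chr1:28586663-28587931, HIRD11 at chr1:20309473-20310850, RAB18 at chr5:26518277-26519447, AT2G21490 at chr2:9205990-9207125, AT4G38410 at chr4:17980678-17981766 and AT4G39130 at chr4:18228118-18228854. No stretch of 50 exonic bases of any of the 10 genes occurs elsewhere in the genome. Only exact copies were searched, and whether similar genes share reads with mismatches was not tested. RAB18 overlaps AT5G66410 on the opposite strand by 11 exonic bases.

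The members differ greatly in level. Per kilobase of coding sequence, the mean over the 16 libraries was 5162 CPM for HIRD11, 1526 for COR47, 1135 for ERD14, 775 for ERD10, 397 for LTI30, 98.1 for RAB18 and 6.43 for AT4G38410. Per kilobase of exon the order of COR47 and ERD14 turned, at 525 and 536 CPM, and the other places were kept. XERO1 (261 counts over the 16 libraries) and AT2G21490 (265 counts) were scarce. AT4G39130 had 2 counts in all, 1 in a Col-0 NaCl library and 1 in a Col-0 sorbitol library, and was tested nowhere. After the filter on low counts, 9 of the 10 dehydrins were tested in the NaCl experiment and 8 in the sorbitol experiment, where AT2G21490 dropped out too. CPM values below are scaled by the trimmed mean of M values (TMM) over all 16 libraries. They can be compared between groups for 1 gene, not between genes. Statements on the order and overlap of groups refer to this scaling.

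**Figure D1:**
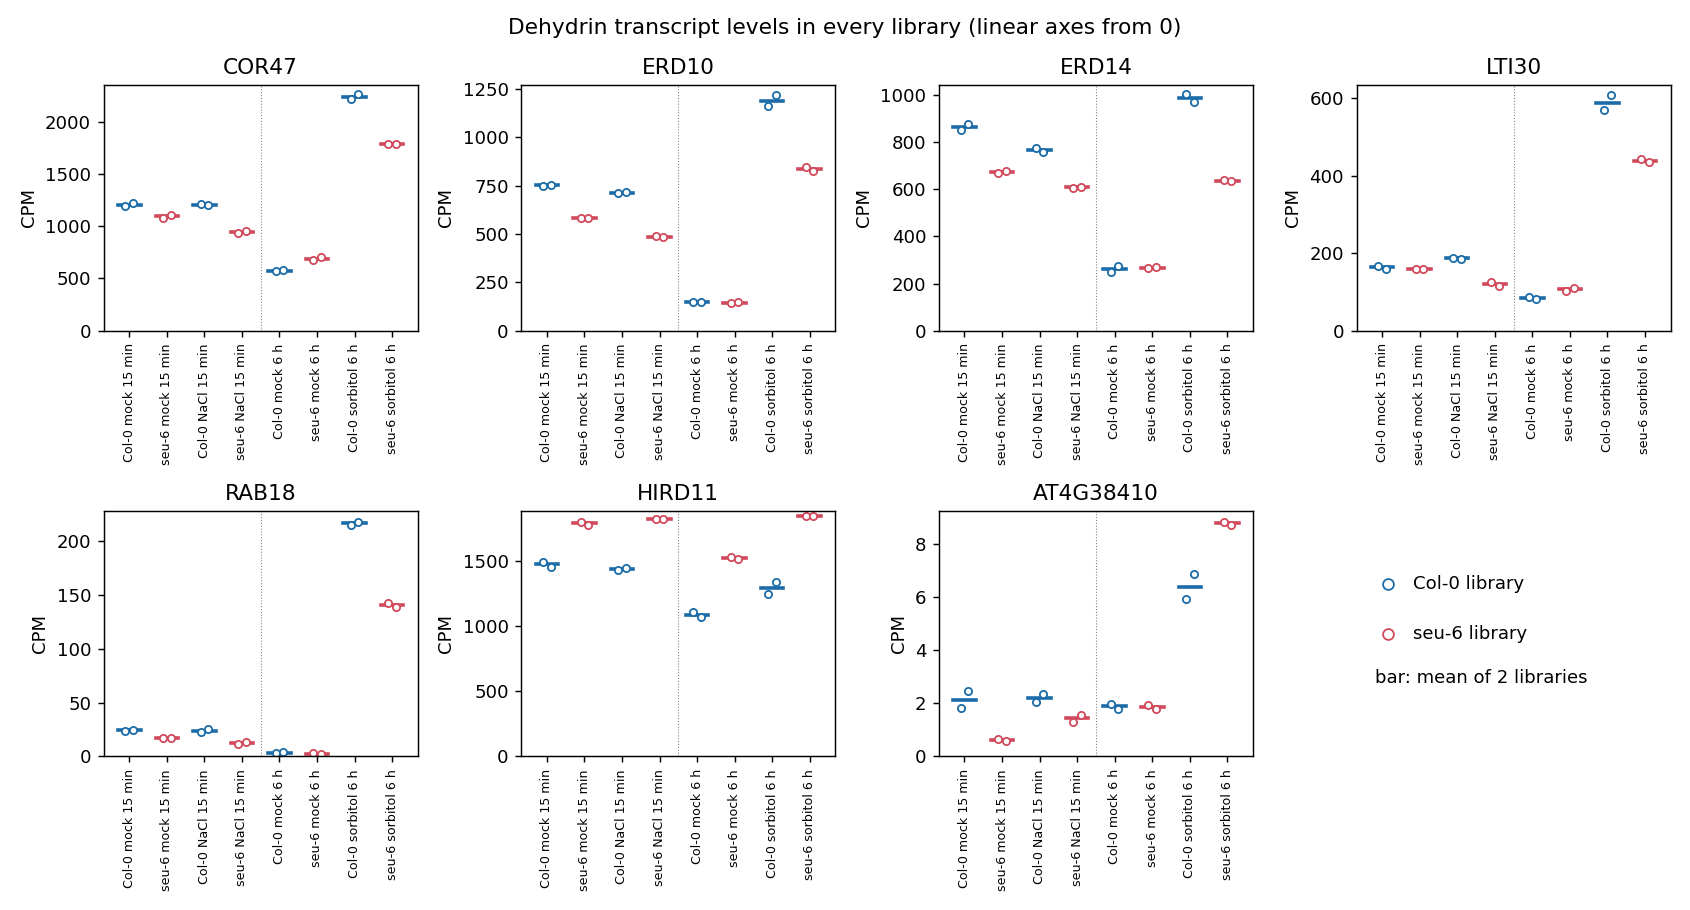
Level of 7 dehydrins in each library, in CPM on a linear axis from 0, by group; circles are libraries (Col-0 blue, seu-6 red), bars are the mean of 2, and the dotted line parts the NaCl experiment from the sorbitol experiment. Col-0 sorbitol is the highest group for COR47, ERD10, ERD14, LTI30 and RAB18, and seu-6 sorbitol is the highest for HIRD11 and AT4G38410.

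After 6 h in sorbitol all 8 dehydrins tested had risen in Col-0 and all 8 had risen in seu-6, by between 1.2-fold for HIRD11 and 62.1-fold for RAB18 in Col-0. Among all 21633 genes tested 31.3% were called higher and 31.2% lower in Col-0, and 28.9% higher and 29% lower in seu-6. The median log2 fold change of the 8 dehydrins was 2.39 in Col-0 and 1.80 in seu-6, beside -0.01 and 0.00 over all genes. The rise of COR47, ERD10, ERD14 and LTI30 was smaller in the mutant, and for RAB18 and HIRD11 no difference between the responses was called. The p-values rest on the spread between replicates, pooled over the 4 groups of an experiment and moderated by edgeR towards that of other genes. With 2 biological replicates a group, each fit has 4 residual degrees of freedom. In whole seedlings, fewer cells of a type and less RNA per cell cannot be told apart. The root markers summed to 234 to 236 CPM in the Col-0 mock and 187 to 203 CPM in sorbitol, and to 231 to 233 and 198 to 200 CPM in seu-6. The leaf markers summed to 49610 to 51330 CPM in the Col-0 mock and 56740 to 57160 CPM in sorbitol, and to 43120 to 43680 and 51370 to 52190 CPM in seu-6. They thus lay higher in sorbitol in both genotypes and lower in seu-6 in both media, and the part of either marker list in the dehydrin values was not tested.

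COR47, an acidic dehydrin named for its induction by cold, lay at 571 and 579 CPM in the Col-0 mock and at 2214 and 2267 CPM in sorbitol. In seu-6 it lay at 673 and 704 CPM in the mock and at 1786 and 1782 CPM in sorbitol. The mutant thus started above the wild type and ended below it, with no overlap between any of the 4 groups. By edgeR the log2 fold change was 1.97 ± 0.03 (standard error) in Col-0, with an adjusted p of 1.9e-53, and 1.39 ± 0.03 in seu-6, with an adjusted p of 1.7e-45. The standard error here and below was computed from the fold change and its F value, and so reflects edgeR's variance for the 8 libraries of an experiment, moderated over genes. The seu-6 response was smaller by -0.58 ± 0.04 on the log2 scale, with an edgeR adjusted p of 1.3e-17.

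ERD10, an acidic dehydrin with chaperone activity in vitro, lay at 150 and 147 CPM in the Col-0 mock and at 1160 and 1217 CPM in sorbitol. In seu-6 it lay at 143 and 148 CPM in the mock and at 844 and 827 CPM in sorbitol. The mocks of the 2 genotypes overlapped, and the sorbitol groups did not. Its log2 rise by edgeR was 3.01 ± 0.04 in Col-0 and 2.54 ± 0.03 in seu-6, the steepest of the acidic group in both, and the difference between the responses was -0.47 ± 0.05 with an adjusted p of 4.6e-12.

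ERD14, the third acidic dehydrin and likewise a chaperone in vitro, lay at 248 and 274 CPM in the Col-0 mock and at 1005 and 972 CPM in sorbitol. In seu-6 the mock libraries held 265 and 270 CPM and the sorbitol libraries 638 and 635 CPM. Both seu-6 mock libraries fell inside the range of the Col-0 mock, while in sorbitol the genotypes stood apart. The log2 rise was 1.93 ± 0.04 in Col-0 and 1.27 ± 0.04 in seu-6, and the responses differed by -0.66 ± 0.05 with an edgeR adjusted p of 4.1e-16.

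RAB18, the ABA-responsive dehydrin, lay at 3.28 and 3.73 CPM in the Col-0 mock and at 215 and 217 CPM in sorbitol. In seu-6 it lay at 2.87 and 2.07 CPM in the mock and at 142 and 138 CPM in sorbitol. The seu-6 libraries were below the Col-0 libraries in both media, with no overlap. The log2 rise was 5.96 ± 0.07 in Col-0 (62.1-fold, edgeR adjusted p of 3.7e-59) and 5.84 ± 0.07 in seu-6 (57.4-fold, 1.1e-56), which placed RAB18 at rank 67 and rank 50 among the rises of all genes. The difference between the responses was -0.11, with a 95% interval from -0.38 to 0.15 and an edgeR adjusted p of 0.67.

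LTI30, the membrane-binding dehydrin, lay at 87.2 and 82.8 CPM in the Col-0 mock and at 569 and 608 CPM in sorbitol. In seu-6 the values were 103 and 110 CPM in the mock and 442 and 434 CPM in sorbitol. As with COR47, the mutant was above the wild type in the mock and below it in sorbitol, with no overlap. The log2 rise was 2.80 ± 0.04 in Col-0 and 2.05 ± 0.04 in seu-6, and the difference of -0.75 ± 0.05 (edgeR adjusted p of 3e-17) was the largest among the 4 called dehydrins.

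XERO1, the neighbour of LTI30, had 8 and 1 counts in the Col-0 mock and 38 and 40 in sorbitol, and 9 and 12 counts in the seu-6 mock against 43 and 15 in sorbitol. The groups of each genotype did not overlap, but the seu-6 sorbitol libraries lay far apart. Its log2 rise was 3.19 ± 0.69 in Col-0 (edgeR adjusted p of 5.8e-05) and 1.55 ± 0.62 in seu-6 (0.028). The call in seu-6 was lost under 5 of 13 alternatives, with an adjusted p of 0.62 without seu-6 sorbitol replicate 1, 0.13 and 0.061 without replicate 1 and replicate 2 of the seu-6 mock, 0.061 by DESeq2 and 0.072 when all 16 libraries were fitted together.

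HIRD11, the metal-binding dehydrin, lay at 1106 and 1070 CPM in the Col-0 mock and at 1245 and 1336 CPM in sorbitol. In seu-6 it lay at 1530 and 1518 CPM in the mock and at 1844 and 1846 CPM in sorbitol. It rose by 0.26 ± 0.03 on the log2 scale in Col-0 (edgeR adjusted p of 2.7e-11) and by 0.29 ± 0.03 in seu-6 (4.8e-13), the smallest rise of the 8 in each genotype. The difference between the responses was 0.03, with a 95% interval from -0.05 to 0.12 and an adjusted p of 0.69.

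AT4G38410, a dehydrin of low level, had 1.98 and 1.78 CPM in the Col-0 mock, 5.91 and 6.87 CPM in Col-0 sorbitol, 1.95 and 1.79 CPM in the seu-6 mock and 8.84 and 8.70 CPM in seu-6 sorbitol. The mocks overlapped and seu-6 was the higher genotype in sorbitol, the reverse of the acidic dehydrins. The log2 rise was 1.77 ± 0.18 in Col-0 and 2.24 ± 0.18 in seu-6, and the difference of 0.47 ± 0.26 was not called (edgeR adjusted p of 0.26). AT2G21490, left out of the sorbitol fit by the filter, had 0 and 0 counts in the Col-0 mock, 8 and 10 in Col-0 sorbitol, 0 and 1 in the seu-6 mock and 6 and 12 in seu-6 sorbitol.

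**Figure D2:**
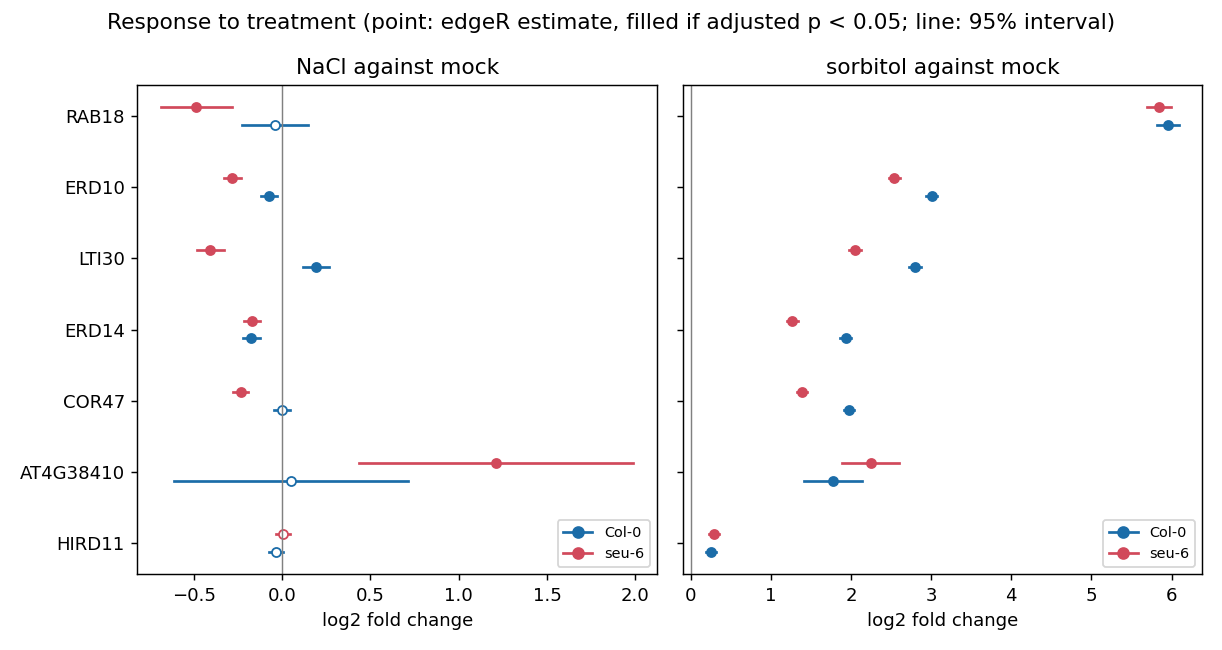
Log2 fold change of 7 dehydrins under NaCl (left) and sorbitol (right) against the mock of the same genotype, Col-0 in blue and seu-6 in red; points are edgeR estimates, filled where the adjusted p is under 0.05, and lines are 95% intervals. Every sorbitol point is filled and above 0, from 0.26 for HIRD11 to 5.96 for RAB18 in Col-0, while all NaCl points but that of AT4G38410 in seu-6 (1.21) lie within 0.5 of 0.

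Compared directly, the responses of the 2 genotypes to sorbitol differed for 4 of the 8 dehydrins, all 4 with the smaller rise in seu-6, where 7.38% of all genes had a lower and 5.62% a higher response. The median difference was -0.53 over the dehydrins and -0.01 over all genes. These 4 differences use the seu-6 mock libraries with the raised seed markers, and the part of those markers in the differences was not tested. In those 2 libraries AT2G21490 had 0 and 1 counts and AT4G39130 had 0 in both, while in the Col-0 mock at 6 h each had 0 in both. Counts of these 2 scarce genes do not test the part of the seed markers in the other dehydrins. With each library left out in turn, 4 dehydrins were called lower in all 8 fits, and none higher. No dehydrin had a higher response in seu-6 by edgeR or DESeq2, nor at an unadjusted p under 0.05, where the count was 0.

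Within sorbitol, a comparison that does not use the mock libraries, seu-6 was lower than Col-0 for 5 dehydrins and higher for 2, where 17.4% of all genes were lower and 17.5% higher. The log2 difference was -0.63 ± 0.03 for ERD14, -0.62 ± 0.04 for RAB18, -0.51 ± 0.03 for ERD10, -0.42 ± 0.04 for LTI30 and -0.33 ± 0.03 for COR47, each with an edgeR adjusted p of 1.3e-14 or less. The groups of these 5 genes did not overlap. HIRD11 was higher in seu-6 by 0.52 ± 0.03 (1.1e-22) and AT4G38410 by 0.46 ± 0.16 (0.018), while XERO1 was not called (-0.39 ± 0.53, edgeR adjusted p of 0.61). The AT4G38410 call was lost under 5 of 14 alternatives, with an adjusted p of 0.2 without Col-0 sorbitol replicate 1, 0.11 and 0.088 without replicate 1 and replicate 2 of seu-6 sorbitol, 0.058 by DESeq2 and 0.079 with all 16 libraries in 1 fit. The fit without the 2 seu-6 mock libraries, an alternative added after the data were seen, gave the same counts. These were 8 higher in Col-0 under sorbitol and 5 lower and 2 higher in seu-6 against Col-0. Neither comparison contrasts the seu-6 mock, so only scaling, filter and variance could move them. This fit therefore does not test the part of the seed markers.

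In the 6 h mock the picture was another. HIRD11 (0.48 ± 0.03), LTI30 (0.33 ± 0.04) and COR47 (0.26 ± 0.03) were higher in seu-6, with edgeR adjusted p values of 3.3e-21, 4.3e-10 and 7.2e-11, and RAB18 was lower (-0.51 ± 0.13, 0.0011). That is 3 of 8 higher and 1 of 8 lower, where 16% of all genes were higher and 11.8% lower. ERD10 (-0.04 ± 0.03, 0.49), ERD14 (0.03 ± 0.04, 0.54), AT4G38410 (-0.01 ± 0.20, 0.98) and XERO1 (1.25 ± 0.81, 0.27) were not called by edgeR. The RAB18 difference fell to -0.29 with an adjusted p of 0.18 without seu-6 mock replicate 2. The part of the raised seed markers of the seu-6 mock in these 4 calls was not tested.

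**Figure D3:**
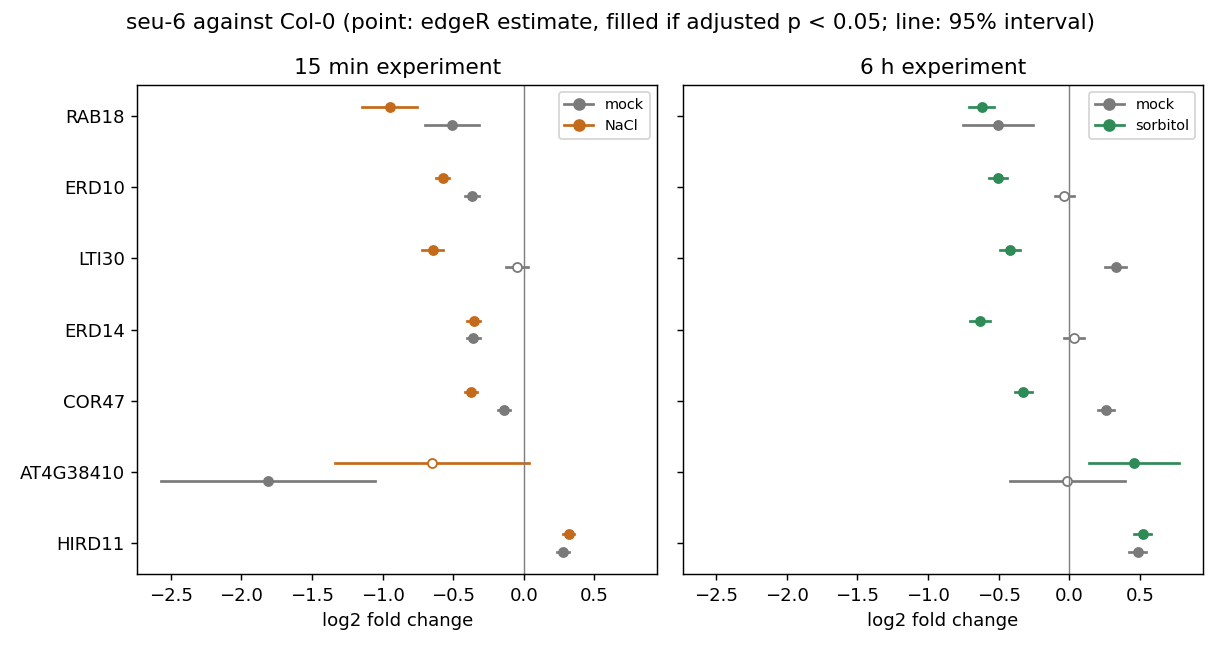
Log2 fold change of seu-6 against Col-0 for 7 dehydrins in the 15 min experiment (left, mock grey and NaCl orange) and in the 6 h experiment (right, mock grey and sorbitol green); points are edgeR estimates, filled where the adjusted p is under 0.05, and lines are 95% intervals. HIRD11 lies right of 0 in all 4 conditions (0.28, 0.32, 0.48 and 0.52), while RAB18 lies left of 0 in all 4.

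After 15 min in NaCl the dehydrins moved little in Col-0 and mostly downward in seu-6. In Col-0, 2 of the 9 tested rose and 2 fell, where 15.8% of all 22066 genes tested rose and 17.6% fell, and the median log2 fold change was -0.03 over the dehydrins and 0.01 over all genes. In seu-6, 1 rose and 5 fell, where 12% of all genes rose and 17.9% fell, and the medians were -0.23 and 0.00. The summed level of the root markers was 260 to 262 CPM in the Col-0 mock and 197 to 206 CPM in NaCl, and 229 to 230 CPM in the seu-6 mock and 166 to 170 CPM in NaCl. The leaf markers summed to 52380 to 52760 CPM in the Col-0 mock and 46300 to 47690 CPM in NaCl, and to 58000 to 58370 and 51050 to 54210 CPM in seu-6. Both lists thus lay lower in NaCl, and leaf markers lay higher in seu-6, and their part in the dehydrin values was not tested here either.

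LTI30 went in opposite directions in the 2 genotypes. It lay at 167 and 160 CPM in the Col-0 mock and at 188 and 185 CPM in NaCl, and at 158 and 159 CPM in the seu-6 mock and at 127 and 115 CPM in NaCl. NaCl libraries lay above their mock in Col-0 and below it in seu-6, with no overlap in either. The log2 fold change was 0.19 ± 0.04 in Col-0 (edgeR adjusted p of 1.7e-05) and -0.41 ± 0.04 in seu-6 (1.7e-15). The responses differed by -0.60 ± 0.05 with an edgeR adjusted p of 1.4e-15.

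COR47 lay at 1189 and 1226 CPM in the Col-0 mock and at 1214 and 1199 CPM in NaCl. In seu-6 it lay at 1083 and 1109 CPM in the mock and at 933 and 954 CPM in NaCl. The Col-0 groups overlapped and the seu-6 groups did not. By edgeR the log2 fold change was 0.00 ± 0.02 in Col-0 (adjusted p of 0.99) and -0.23 ± 0.02 in seu-6 (9.1e-16), and the responses differed by -0.23 ± 0.03 (4.4e-09).

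ERD10 lay at 748 and 754 CPM in the Col-0 mock and at 711 and 717 CPM in NaCl. In seu-6 both mock libraries held 583 CPM, and the NaCl libraries held 491 and 482 CPM. It was lower in NaCl in both genotypes with no overlap, by -0.07 ± 0.02 in Col-0 (edgeR adjusted p of 0.012, and 0.068 without Col-0 mock replicate 2) and by -0.28 ± 0.02 in seu-6 (1.9e-17). The ERD10 groups of Col-0 lay close together, and their lack of overlap depends on the TMM scaling. The difference between the responses was -0.21 ± 0.03 (edgeR adjusted p of 1.9e-06).

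ERD14 fell in both genotypes. It lay at 850 and 878 CPM in the Col-0 mock and at 775 and 757 CPM in NaCl, and at 671 and 680 CPM in the seu-6 mock and at 605 and 610 CPM in NaCl. No NaCl library overlapped the mock of its genotype. The log2 fold change was -0.17 ± 0.02 in both, with edgeR adjusted p values of 1.9e-09 and 4.5e-09. The responses differed by 0.00 with a 95% interval from -0.06 to 0.07 and an adjusted p of 0.99.

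RAB18 lay at 23.9 and 24.97 CPM in the Col-0 mock and at 22.5 and 25.02 CPM in NaCl. In seu-6 it lay at 17.4 and 17.1 CPM in the mock and at 11.7 and 13.2 CPM in NaCl. The Col-0 groups overlapped and the seu-6 groups did not. It was not called in Col-0 (-0.04 ± 0.09, edgeR adjusted p of 0.79) and fell in seu-6 (-0.48 ± 0.10, 5.9e-05). The difference between the responses, -0.44 ± 0.14 with an edgeR adjusted p of 0.029, was lost under 7 of 13 alternatives, 6 of them with a library left out, where the adjusted p reached 0.27 without Col-0 NaCl replicate 2.

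HIRD11 lay at 1491 and 1455 CPM in the Col-0 mock, 1433 and 1442 CPM in Col-0 NaCl, 1801 and 1776 CPM in the seu-6 mock and 1821 and 1817 CPM in seu-6 NaCl. It was called in neither genotype by edgeR, with -0.03 ± 0.02 in Col-0 (adjusted p of 0.2) and 0.01 ± 0.02 in seu-6 (0.85), and the 95% interval of the difference between the responses ran from -0.02 to 0.10. With no filter on low counts edgeR called it lower in Col-0 (-0.06, adjusted p of 0.031). The 95% intervals of the log2 fold change in the reported fit ran from -0.07 to 0.01 in Col-0 and from -0.03 to 0.05 in seu-6.

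The scarce members gave calls that rest on few reads. AT2G21490 had 0 and 19 counts in the Col-0 mock and 47 and 55 in NaCl, and 23 and 21 counts in the seu-6 mock and 27 and 36 in NaCl. It rose in Col-0 by 2.37 ± 0.65 (edgeR adjusted p of 0.0026), but was not called by DESeq2 (0.18) or without Col-0 mock replicate 1, the library at 0 (1.37, 0.14), and in seu-6 it was not called (0.45 ± 0.61, 0.64). AT4G38410 had 72 and 100 counts in the Col-0 mock, 88 and 96 in Col-0 NaCl, 25 and 21 in the seu-6 mock and 50 and 62 in seu-6 NaCl. By edgeR it rose in seu-6 (1.21 ± 0.39, adjusted p of 0.011) and was not called in Col-0 (0.05 ± 0.33, 0.93), and the call in seu-6 was lost without replicate 2 of the seu-6 mock (0.076) or of seu-6 NaCl (0.083). XERO1, with 18 and 4 counts in the Col-0 mock, 3 and 4 in Col-0 NaCl, 25 and 13 in the seu-6 mock and 20 and 8 in seu-6 NaCl, was called in none of the NaCl comparisons by edgeR (adjusted p from 0.12 to 0.74, the former under NaCl, where the unadjusted p was 0.043).

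The direct test of the genotypes' NaCl responses called 4 of 9 dehydrins lower in seu-6 (COR47, ERD10, RAB18 and LTI30) and 0 higher, as did DESeq2, with 1 higher at an unadjusted p under 0.05, where 4.59% of all genes were lower (1013) and 2.59% higher (572). The split over all genes was not stable: 795 were lower and 785 higher with no filter on low counts, 657 and 641 without Col-0 mock replicate 1, 619 and 593 without Col-0 NaCl replicate 1, and 647 and 568 without Col-0 NaCl replicate 2. The median difference was -0.21 over the dehydrins and -0.02 over all genes. The fits of both experiments compare groups with shared libraries, so that a response, a difference between genotypes and a difference between responses are not independent of each other within an experiment.

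At 15 min seu-6 already differed from Col-0 without salt. In the mock 5 of 9 dehydrins were lower in seu-6 and 1 was higher, where 12.9% of all genes were lower and 14% higher. ERD10 (-0.37 ± 0.02), ERD14 (-0.36 ± 0.02), RAB18 (-0.51 ± 0.10), COR47 (-0.14 ± 0.02) and AT4G38410 (-1.81 ± 0.38) were lower and HIRD11 (0.28 ± 0.02) was higher, each with an edgeR adjusted p of 7.5e-05 or less. LTI30 was not called (-0.05 ± 0.04, edgeR adjusted p of 0.39). AT2G21490 was not called either (1.29 ± 0.69, 0.17), but was higher in seu-6 without Col-0 mock replicate 2 (7.54, 6.4e-04), when the only Col-0 mock library left has no read of it.

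Under NaCl 5 of 9 were lower in seu-6 and 1 was higher, where 16.1% of all genes were lower and 13.6% higher. RAB18 was lower by -0.95 ± 0.10, LTI30 by -0.65 ± 0.04, ERD10 by -0.58 ± 0.02, COR47 by -0.38 ± 0.02 and ERD14 by -0.36 ± 0.02 on the log2 scale, with edgeR adjusted p values of 1e-13 or less. HIRD11 was higher by 0.32 ± 0.02 (1.2e-24), and AT4G38410 (-0.65 ± 0.34, 0.16) and AT2G21490 (-0.63 ± 0.57, 0.46) were not called by edgeR.

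HIRD11 was thus the dehydrin that was higher in seu-6 in all 4 conditions, the mock and the treatment of each experiment. Its 4 seu-6 groups, from 1524 to 1845 CPM on average, all stood above the 4 Col-0 groups, from 1088 to 1473 CPM. Under the TMM scaling none of the 8 groups overlapped its neighbour, but order and overlap within a genotype depend on the scaling. RAB18 was lower in seu-6 in all 4 conditions. Its groups ran from Col-0 sorbitol (216 CPM) and seu-6 sorbitol (140 CPM) down through the Col-0 mock and NaCl groups at 15 min (24.5 and 23.8 CPM), which overlapped, to the mocks at 6 h (3.5 and 2.47 CPM). In COR47 the Col-0 mock and NaCl groups at 15 min overlapped, in ERD10 and ERD14 the 2 mocks at 6 h overlapped, and in LTI30 no neighbours overlapped.

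The mock level itself differed between the experiments. COR47, ERD10, ERD14, RAB18 and LTI30 were 2.1, 5.05, 3.31, 6.98 and 1.92 times as high in the Col-0 mock of 14-day seedlings after 15 min as in that of 10-day seedlings after 6 h, HIRD11 was 1.35 times and AT4G38410 1.14 times as high. In seu-6 the ratios of the first 6 were 1.59, 4.02, 2.53, 6.98, 1.48 and 1.17, and that of AT4G38410 was 0.325, the other way round. The seu-6 ratios use the 6 h mock with the raised seed markers. Age, time in liquid and experiment differ together here and cannot be told apart, so no test is given. As a result ERD14 in seu-6 sorbitol (637 CPM on average) lay below the level of the seu-6 mock at 15 min (675 CPM), although sorbitol had raised it 2.41-fold over its own mock.

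Summed over the 10 genes, dehydrin transcripts made up 2163 ± 7.05 CPM (SD, n = 2) in the Col-0 mock at 6 h and 6520 ± 149 CPM in sorbitol. In seu-6 the sums were 2736 ± 24.6 CPM in the mock, the group with the raised seed markers, and 5688 ± 24.6 CPM in sorbitol. In the NaCl experiment the sums were 4486 ± 21.6 CPM in the Col-0 mock, 4338 ± 13.5 in Col-0 NaCl, 4320 ± 6.63 in the seu-6 mock and 3993 ± 2.54 in seu-6 NaCl. The make-up shifted with sorbitol. HIRD11 supplied 50.3% of dehydrin counts in the Col-0 mock and 19.8% in sorbitol, and 55.7% and 32.4% in seu-6. RAB18 went from 0.162% to 3.31% in Col-0 and from 0.0904% to 2.47% in seu-6, and ERD10 from 6.87% to 18.2% and from 5.31% to 14.7%. These are shares of counts, not of molecules, since longer transcripts give more reads.

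**Figure D4:**
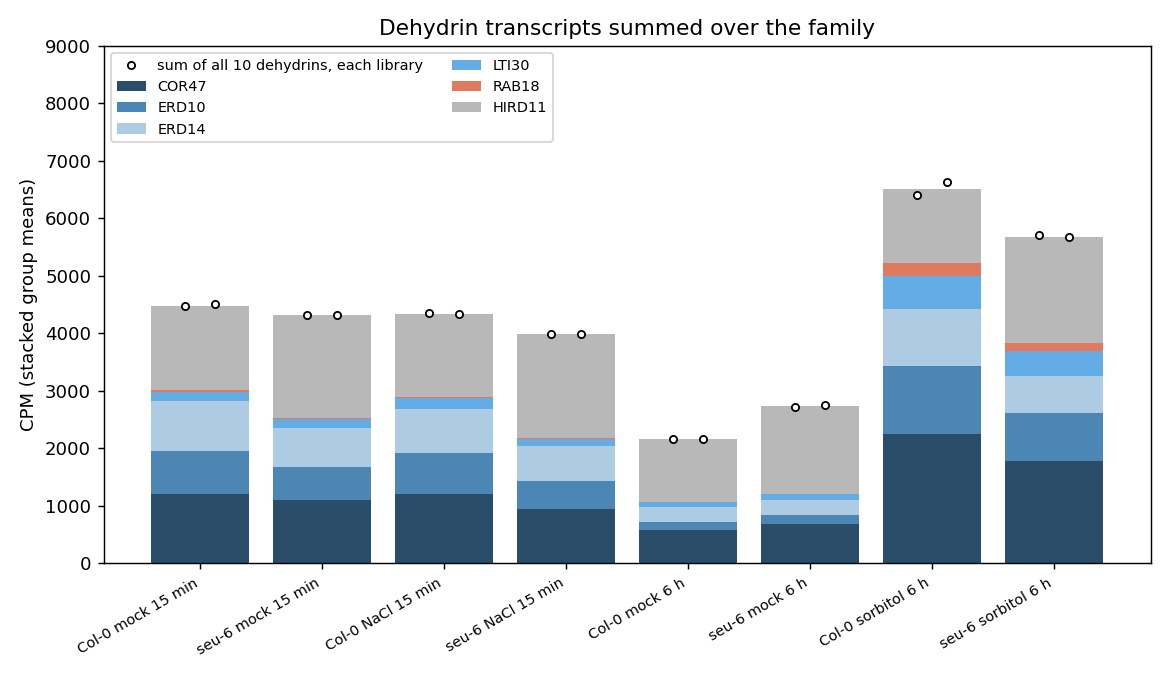
Dehydrin transcripts summed over the family in each group, in CPM, as stacked means of the 6 most abundant members; circles give the sum of all 10 dehydrins in each library. The sum is lowest in the Col-0 mock at 6 h (2163 CPM) and highest in Col-0 sorbitol (6520 CPM), and the grey HIRD11 segment is larger in seu-6 than in Col-0 in every medium.

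Genes of the same stress pathways were counted from 4 written lists, and the seu-6 values in sorbitol again use the mock with the raised seed markers, whose part was not tested. Of 11 cold and drought effector genes, 11 rose in sorbitol in Col-0 and 11 in seu-6, with medians of 3.55 and 3.17 on the log2 scale, where 31.3% and 28.9% of all genes rose, with medians of -0.005 and -0.004. LTI78 (RD29A) rose by 3.72 ± 0.03 and 3.49 ± 0.03, and RD22 by 3.83 ± 0.04 and 3.25 ± 0.03. The difference between the responses was called lower in seu-6 for 10 of the 11 and higher for 1, where 7.38% of all genes were lower and 5.62% higher, with a median of -0.51 against -0.01 over all genes, and COR15A (-0.78 ± 0.05, edgeR adjusted p of 3.6e-19) had the smallest p. KIN2 followed with -0.68 ± 0.05 (edgeR adjusted p of 9.8e-18). Its level is held as uncertain because of its close copy KIN1, and whether they share reads was not tested.

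The ABA-response bZIP factors and SnRK2 kinases, the relay that ends at the ABRE, were 8 genes. All 8 rose in sorbitol in each genotype, where 31.3% of all genes rose in Col-0 and 28.9% in seu-6. Their medians were 1.17 and 0.93, beside -0.005 and -0.004 over all genes. The responses differed for 6, all lower in seu-6 (7.38% of all genes), among them the bZIP factors ABF2 (-0.74 ± 0.08, edgeR adjusted p of 1.1e-10) and ABF3 (-0.28 ± 0.06, 8.7e-04) and the kinase SNRK2.3 (-0.56 ± 0.10, 5.2e-05). ABF3 lay at 467 ± 16.4 CPM (SD, n = 2) in Col-0 sorbitol and 248 ± 8.29 CPM in seu-6 sorbitol. It was lower in seu-6 in the 6 h mock as well, at 29.1 ± 2.97 CPM against 44.9 ± 1.11 CPM in Col-0. Within sorbitol 6 of the 8 genes were lower in seu-6 and 2 were higher, where 17.4% of all genes were lower and 17.5% higher. ABF1 was among the higher, at 125 ± 1.87 CPM in seu-6 sorbitol against 91.2 ± 2.93 CPM in Col-0 sorbitol. Of the 9 CBF/DREB factors 7 were tested in sorbitol and 6 rose in each genotype (31.3% of all genes in Col-0 and 28.9% in seu-6). DREB1A, also called CBF3, rose more in seu-6 (5.18 ± 0.22 against 3.51 ± 0.15, difference 1.67 ± 0.32 with an edgeR adjusted p of 7.8e-05) from a lower mock level of 0.242 CPM against 1.70 CPM, and stayed lower in sorbitol (8.79 against 19.2 CPM). The CBF genes are close copies of each other, so their counts are held as uncertain, and whether they share reads was not tested.

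In the NaCl experiment the difference between responses, seu-6 minus Col-0, was called higher for 4 of the 9 CBF/DREB factors (2.59% of all genes). DREB2A led, with a rise of 1.18 ± 0.05 in Col-0 and of 2.26 ± 0.05 in seu-6 (difference 1.08 ± 0.07, edgeR adjusted p of 1.4e-24). DDF1 was also called higher (0.73 ± 0.09), but it fell in both genotypes, with -1.84 ± 0.06 in Col-0 and -1.11 ± 0.07 in seu-6. In the 15 min mock 7 of the 9 were lower in seu-6 (12.9% of all genes), DREB2A at 33.5 against 58.5 CPM. For the effector genes the difference between NaCl responses was called lower for 6 of 11 and higher for 2 (4.59% and 2.59% of all genes). LTI78 rose in Col-0 (0.65 ± 0.03), with a difference of -0.62 ± 0.04 (edgeR adjusted p of 7.4e-22). ERD7 was also called lower (-0.42 ± 0.03), but it was level in Col-0, at 715 CPM in the mock and 717 CPM in NaCl on average. In seu-6 ERD7 fell from 580 to 440 CPM. RD22 went the other way and was among the 2 called higher (0.29 ± 0.05, edgeR adjusted p of 3.2e-05). For the bZIP factors and SnRK2 kinases the difference was called lower for 2 of 8 (4.59% of all genes). Only 1 was called with no filter and in the joint fit of 16 libraries. The count also dropped without Col-0 mock replicate 1, Col-0 NaCl replicate 1 or 2, seu-6 mock replicate 1 or seu-6 NaCl replicate 2. Of the 8 casein kinase 2 subunits, the kinase that phosphorylates ERD14, 2 rose and 2 fell in sorbitol in Col-0 and 3 rose and 3 fell in seu-6, near the shares over all genes (31.3% and 31.2% in Col-0, 28.9% and 29% in seu-6), with medians of -0.04 and -0.05. Each of these counts fell to 1 under some alternative, among them DESeq2 for both falls, the joint fit for the rise in seu-6, and, for at least 1 of the counts of the genotype concerned, fits without either mock replicate or without sorbitol replicate 2.

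The genes whose pattern over the 16 libraries was nearest to that of a dehydrin were sought among 21193 genes outside the family, by the root mean square difference of log2(CPM + 1) after centring each gene on its own mean. GLY3 (0.11) and RCI2A (0.13) were nearest to COR47, LEA14 (0.21) and PAP17 (0.23) to ERD10, and GSTU18 (0.13) and AT3G11420 (0.15) to ERD14. P5CS1 (0.39) and GolS2 (0.49) were nearest to RAB18, AT5G17460 (0.17) and SPS2F (0.20) to LTI30, AT2G47390 (0.07) and AT5G18780 (0.07) to HIRD11, and AT1G25530 (0.27) and bHLH093 (0.28) to AT4G38410. For scale, the SD of a dehydrin's own log2 values over the libraries ran from 0.25 for HIRD11 to 1.97 for RAB18. Within the family the closest pair was COR47 and ERD14 (0.36), followed by COR47 and LTI30 (0.37), and the neighbours COR47 and ERD10 were at 0.54.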

How the data were processed

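The authors deposited raw gene counts, 1 table for each of 16 libraries. The submitters' processing notes name TAIR10, HISAT2 2.2.1, HTSeq 0.13.5 and DESeq2. Of strand, gene annotation and read filtering nothing is given in the sources used here. The summary lines of each table, 8.78% to 12.7% of reads, entered neither library sizes nor tests. Groups were taken from the labels.

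Each experiment was fitted on its 8 libraries in R 4.3.3 by edgeR 4.0.16's quasi-likelihood test (robust option, TMM scaling, filterByExpr with a count minimum of 10, 4 residual degrees of freedom, 1 mean per group, no block). P-values were adjusted by Benjamini-Hochberg over all genes tested, and genes under 0.05 were called. Comparisons were treatment against mock, seu-6 against Col-0 and the difference between responses. Alternatives were DESeq2 1.42.0, its size factors, no filter, a replicate block, a joint fit of the 16 libraries and leaving out each library. The dehydrins and all lists, markers included, were chosen with earlier results of these data known. The rule for genes named takes all dehydrins, for each list up to 3 genes by adjusted p in a comparison (the text prints part of these) and the 2 genes nearest in pattern to each dehydrin with a mean of 1 CPM or more. RefSeq's TAIR10.1 assembly served for symbols (32548 of 32833 loci matched), loci, lengths and upstream sequences. Intervals cover the spread between these libraries, and depth limits XERO1, AT2G21490 and AT4G39130 most.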

Additional observations from a re-analysis of the deposited data

Results flagged for a closer look

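In 8 cases the test of the difference itself found that a dehydrin responded differently in seu-6 and Col-0, by edgeR with Benjamini-Hochberg adjustment. Under sorbitol the seu-6 response was smaller, by a log2 difference of -0.58 for COR47 (adjusted p of 1.3e-17), -0.47 for ERD10 (4.6e-12), -0.66 for ERD14 (4.1e-16) and -0.75 for LTI30 (3e-17). All 4 use the seu-6 mock at 6 h, whose seed markers summed to 185 and 185.1 CPM against at most 6.23 CPM elsewhere. Under NaCl the seu-6 value was lower by -0.6 for LTI30 (1.4e-15), -0.44 for RAB18 (0.029), -0.23 for COR47 (4.4e-09) and -0.21 for ERD10 (1.9e-06). The RAB18 difference is the least firm, with an adjusted p of up to 0.27 among 13 alternatives. LTI30 is the dehydrin that was called in opposite directions under NaCl, 0.19 in Col-0 and -0.41 in seu-6.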

How the results depend on the processing

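Of the values that alternatives gave for counts of dehydrins called, 251 stayed within 1.5 times the reported count and 13 did not, and of those for the pathway lists 988 did and 68 did not. DESeq2 gave 1 dehydrin higher in Col-0 under NaCl and 1 higher in seu-6 against Col-0 under sorbitol, and the fit of all 16 libraries gave 1 for the latter and 1 higher for the difference between NaCl responses. With each library left out in turn, counts ran from 1 to 2 for dehydrins higher and for dehydrins lower under NaCl in Col-0, from 0 to 1 for higher under NaCl in seu-6, from 1 to 2 for higher in seu-6 in the 15 min mock, from 0 to 1 for lower in seu-6 in the 6 h mock and from 1 to 2 for higher in seu-6 under sorbitol. Further counts moved but stayed within 1.5 times the reported count. They were those higher under sorbitol in Col-0 and in seu-6, higher in seu-6 in the 6 h mock and lower for the difference between NaCl responses. The cause of all these moves was not tested, beyond the genes named beside each result.

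Fold changes that changed sign were not called in the reported fit. COR47 under NaCl in Col-0 came to -0.004 by DESeq2, -0.004 with its size factors, -0.021 with no filter and -0.001 with all 16 libraries. With each library left out it ran from -0.042 to 0.021. In the same way RAB18 ran from -0.138 to 0.014 and AT4G38410 from -0.174 to 0.29 under NaCl in Col-0, and XERO1 from -1.306 to 0.028 and HIRD11 from -0.004 to 0.018 under NaCl in seu-6. For the difference between NaCl responses ERD14 ran from -0.019 to 0.058 and XERO1 from -0.243 to 1.891. In the 6 h mock ERD14 ran from -0.036 to 0.106 and AT4G38410 from -0.085 to 0.065. For the difference between sorbitol responses RAB18 ran from -0.332 to 0.139 and HIRD11 from -0.008 to 0.091, and under sorbitol XERO1 ran from -1.396 to 0.192.

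Little shared deviation of same-numbered libraries was seen. Their deviations correlated between -0.0185 and 0.0121 in the NaCl experiment and between -0.0701 and 0.057 in the sorbitol experiment. Such correlations cannot tell whether same-numbered libraries were grown or harvested together. With the replicate number as a block all 20 counts of dehydrins were those reported, for example 8 higher under sorbitol in Col-0 and 4 lower for each difference between responses. Over all genes, the number called lower for the difference between NaCl responses moved from 1013 to 795 with no filter, where 785 instead of 572 were higher, to 657 without Col-0 mock replicate 1 and to 619 and 647 without Col-0 NaCl replicate 1 and replicate 2, and the number higher under NaCl in Col-0 from 3482 to 2315 without Col-0 NaCl replicate 2. Scaling by DESeq2's size factors changed group levels by a ratio of 0.984 to 1.02 and scaling by totals by 0.918 to 1.09. Of the 80 group levels of dehydrins, 9 moved by more than 1 SD of the group's libraries with size factors and 35 with totals. Small differences between group levels, and whether such groups overlap, therefore depend on the scaling.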
